A study of Mus musculus with 4 samples.

Results

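Conventional dendritic cells type 1 (cDC1) were examined in a single-cell expression profile of CD45+ cells from mouse melanomas. They are the cells that carry the class name cDC1 in the deposited cell table, 193 of 34447 cells, and the 16 to 79 cells per library are few. YUMM1.7-OVA RTT cells, mouse melanoma cells that carry ovalbumin and no longer respond to targeted therapy, were grown in Rag2-/- mice, whose own T and B cells are missing. All groups received OT-1 CD8+ T cells, which recognise ovalbumin, by adoptive transfer (ACT) on day 7 and were collected on day 10, 72 h later, and all cells were fixed for 22 h. The control group carried RTT cells with an mCherry vector (CTRL), and in a further group RTT cells overexpressed Irf3 and Irf7 (IRF3/7). Animals with the mCherry RTT cells were also given the COX2 inhibitor celecoxib (COX2i), or celecoxib with the DNA methyltransferase inhibitor 5-azacytidine (COX2i + 5-AZA). Each group was 1 library made from 3 pooled tumours, so no difference between groups has a replicate check, and no p-value is given.

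cDC1 are dendritic cells that take up dying cells and present their antigens on MHC class I to CD8+ T cells, a route called cross-presentation. They depend on the transcription factors Irf8 and Batf3, sense the remains of dead cells through Clec9a, and are drawn to NK and CD8+ T cells through the chemokine receptor Xcr1. The other dendritic classes here were cDC2, which are known mainly for presentation to CD4+ T cells, and CCR7+ DC (named DC3 in the cell table), the mature state in which a dendritic cell that has taken up antigen moves to the lymph node. Prostaglandin E2 (PGE2), the product of the COX2 pathway, and type I interferon (IFN-I) both act on dendritic cells, and the study compared tumours in which these signals were altered.

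Levels are given as counts of unique molecular identifiers (UMIs) summed over the cDC1 of a library and divided by their total UMIs, in the unit CPM (counts scaled to a total of 1e6). The cDC1 held 103348 UMIs in CTRL, 196018 in IRF3/7, 629313 in COX2i and 452277 in COX2i + 5-AZA, with medians of 5148, 5114, 7558 and 6918 UMIs per cell. A count of 0 was read as a limit of 3 UMIs, which is 29.0 CPM in CTRL, 15.3 in IRF3/7, 4.77 in COX2i and 6.63 in COX2i + 5-AZA. Ranges in parentheses after a level, share or ratio are exact 95% limits that cover counting error alone, and the spread between tumours is not in them. In the multiplexed assay, 56 of the 193 cDC1 (29.0%) had a droplet barcode that also occurred in another library, as did 29.1% of all cells. Full cell names, which include the sample's probe barcode, were never shared. A doublet caller marked 1 CTRL cell, 2 IRF3/7 cells and none in the other libraries, too few to have worked, so doublets are not removed from the values below.

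The class name was checked against 6 marker genes. At least 2 of the 6 were seen in 192 of the 193 cDC1, at least 4 in 184 and all 6 in 107. Xcr1 and Clec9a were both seen in 145 cDC1 (75.1%), but in only 24 cells outside the class (0.0701%). The class name was therefore kept.

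Xcr1 (ENSMUSG00000060509.4, chr9:123852315-123862029, minus strand, GRCm38) encodes the receptor for the chemokine Xcl1. It was at 445 CPM in CTRL, 372 in IRF3/7, 679 in COX2i and 763 in COX2i + 5-AZA in cDC1, and no cDC2 value exceeded 7.62 CPM. Itgae, the αE integrin CD103, was at 600, 556, 750 and 593 CPM in cDC1 and at 25.2 to 49.2 CPM in cDC2, so the classes were well apart in every library. A UMI of Xcr1 was found in 78.8% of cDC1, 0.714% of cDC2, 2.09% of CCR7+ DC and 0.0938% of NK cells, which should lack it (medians of 6557, 4131, 3623 and 2670 UMIs per cell). Clec9a was found in 94.3% of cDC1, 4.69% of cDC2 and 6.81% of CCR7+ DC. Wdfy4, which is needed for cross-presentation, was found in 97.4%, 41.0% and 13.6%, and the inhibitory receptor gene Btla in 84.5%, 6.63% and 16.2%. By level, Clec9a was at 484, 551, 521 and 544 CPM in cDC1 and at 5.75 to 53.4 CPM in cDC2. Wdfy4 was at 890, 944, 1003 and 895 CPM against 113 to 157 CPM, and Btla at 339, 464, 362 and 301 CPM against 14.0 to 20.9 CPM. The class ranges did not overlap for any of these genes. Irf8, the lineage factor, was at 1897, 2770, 2118 and 3177 CPM in cDC1, 88.0 to 481 CPM in cDC2 and 796 to 1601 CPM in CCR7+ DC. It was the least particular of the markers, with a UMI in 97.4% of cDC1, 83.2% of CCR7+ DC and 93.2% of NK cells. Thinned to 2000 UMIs per cell, Xcr1 was found in 40.0% of CTRL, 57.9% of IRF3/7, 64.9% of COX2i and 65.0% of COX2i + 5-AZA cDC1 (62.5%, 71.1%, 86.1% and 78.3% unthinned). The thinning left out 1 cell in CTRL and 2 in COX2i.

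**Figure D1:**
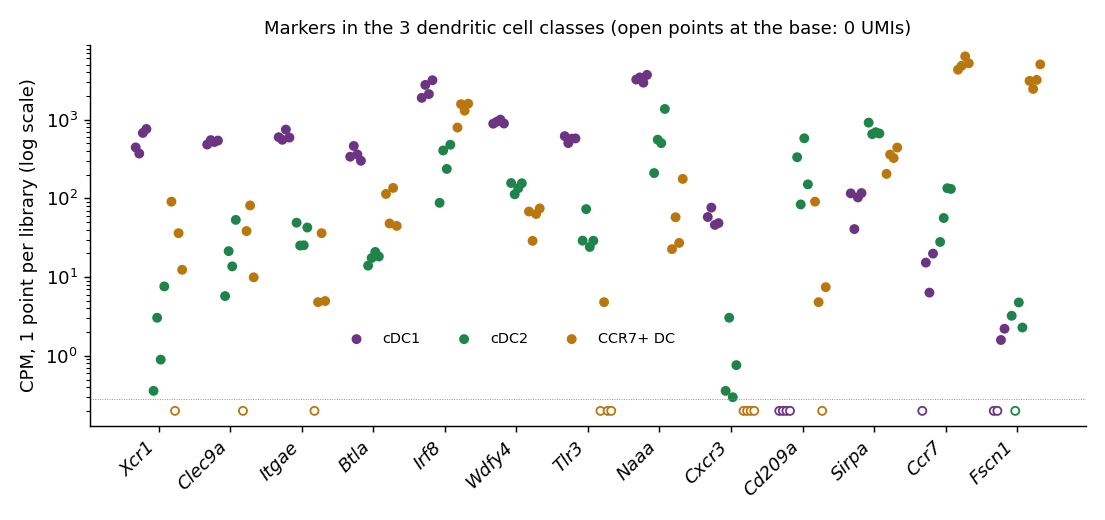
Level in CPM (log axis) of the 6 markers and 7 further genes in cDC1, cDC2 and CCR7+ DC, 1 point per library, with open points at the base for 0 UMIs. Xcr1, Clec9a, Itgae, Btla, Wdfy4, Tlr3 and Cxcr3 are higher in cDC1 than in cDC2 in all 4 libraries, while Cd209a and Sirpa lie higher in cDC2 and Ccr7 and Fscn1 in CCR7+ DC.

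Other cell types were looked for in the class with lists of their markers. NK cell markers summed to 0, 51.0, 9.53 and 15.5 CPM (CTRL, IRF3/7, COX2i, COX2i + 5-AZA) and T cell markers to 0, 10.2, 6.36 and 11.1 CPM, with Ncr1, Nkg7, Cd3d, Cd3e and Trac at 0 UMIs in all 4 libraries. Plasmacytoid DC markers were at 38.7 to 91.8 CPM, neutrophil markers at 84.2 to 607 CPM and tumour and stromal markers at 71.4 to 189 CPM. Macrophage markers summed to 3309, 1393, 2725 and 1384 CPM, all 12 genes being seen in every library, and they sat in few cells. In CTRL 1 cell held 60.2% of them. The 2 CTRL, 4 IRF3/7, 6 COX2i and 4 COX2i + 5-AZA cDC1 with 20 or more such UMIs held 78.7%, 71.1%, 84.5% and 67.9% of them. These 16 cells had at least 4 of the 6 cDC1 markers, and their median UMI counts (11886, 6845, 15156 and 13026) were above those of the other cDC1 (4888, 4656, 7443 and 6706). Values without them are given beside the named genes and list medians that moved.

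The share of cDC1 among CD45+ cells was lowest in CTRL. It was 0.179% (0.102 to 0.290, 16 cells) in CTRL, 0.600% (0.425 to 0.823, 38 cells) in IRF3/7, 0.865% (0.685 to 1.08, 79 cells) in COX2i and 0.598% (0.457 to 0.769, 60 cells) in COX2i + 5-AZA. The CTRL interval did not overlap those of the other libraries, and the IRF3/7 and COX2i + 5-AZA shares did not differ beyond counting error. Among cells with more than 2000 detected genes, however, the share was 0.174% in CTRL (12 of 6892), 1.47% in IRF3/7 (23 of 1567), 0.923% in COX2i (70 of 7585) and 0.742% in COX2i + 5-AZA (53 of 7144), so that IRF3/7 was then highest, at 8.43 times CTRL (4.03 to 18.6) in place of 3.36. Among dendritic cells alone, cDC1 made up 2.38% (1.37 to 3.84) of 671 in CTRL, 7.69% (5.50 to 10.4) of 494 in IRF3/7, 10.2% (8.17 to 12.6) of 773 in COX2i and 14.7% (11.4 to 18.5) of 408 in COX2i + 5-AZA. The ratio to CTRL on that base was 3.23 (1.76 to 6.20), 4.29 (2.48 to 7.86) and 6.17 (3.51 to 11.5). COX2i + 5-AZA thus stood above COX2i among dendritic cells (ratio 1.44, 1.01 to 2.04) and below it among all cells (0.691, 0.486 to 0.980), while there were 666 cDC2 in COX2i and 261 in COX2i + 5-AZA. The ratio among all cells was 0.804 (0.552 to 1.17) with more than 2000 detected genes and 0.748 (0.523 to 1.07) for cells of any class with Xcr1 and Clec9a. Without cells of shared droplets it was 0.665 (0.436 to 1.01), and these ranges span 1. Counting instead every cell with a UMI of both Xcr1 and Clec9a, whatever its class, gave ratios to CTRL of 3.68, 7.16 and 5.35. Shares are of sorted cells, and fewer cells of a type cannot be told apart from poorer recovery of it.

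**Figure D2:**
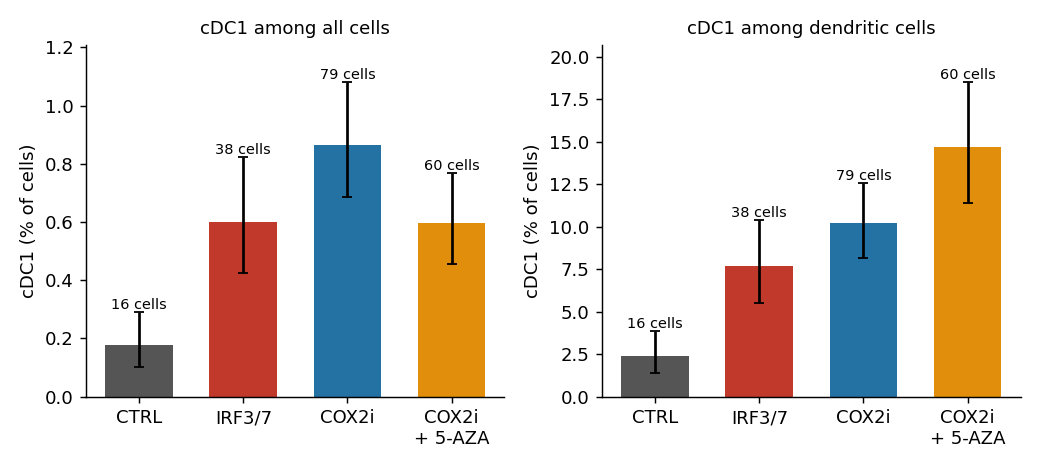
Share of cDC1 in percent for each of the 4 libraries, among all CD45+ cells and among dendritic cells, with exact 95% binomial intervals for counting error. CTRL is lowest on both bases (0.179% and 2.38%), and the order of COX2i and COX2i + 5-AZA differs between them.

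The first comparison set cDC1 against cDC2 within the same 4 libraries. The classes were clustered by the authors on these same genes, so the values describe the classes and are not a test. A gene was counted when its mean CPM over the libraries differed at least 2-fold, with the same direction in all 4. Of the 20 genes in a list of cDC1 identity, 18 were counted as higher in cDC1 and none as lower, with a median log2 ratio of 3.08 (over all 9334 genes with at least 50 UMIs, 6.64% were counted as higher and 10.3% as lower, and the median was 0.09). Zbtb46, a transcription factor of all conventional dendritic cells, and Dpp4 were not counted (0.75 and -0.05). The study's own leading cDC1 genes, 15 of 20 higher (median 1.31), were chosen in part on these cells and are not independent evidence. Of 16 cDC2 identity genes, 14 were lower in cDC1 (median -2.86).

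Several genes set cDC1 apart beyond the 6 markers. Gcsam, a signalling adaptor, was at 532, 398, 377 and 252 CPM in cDC1 (CTRL, IRF3/7, COX2i, COX2i + 5-AZA), against 0.718, 0, 0 and 1.52 CPM in cDC2, and its log2 ratio of 9.44 was the largest under the rule for named genes (10.83 without COX2i + 5-AZA). Ank1, an ankyrin that links membrane proteins to the spectrin skeleton, was at 223, 296, 57.2 and 31.0 CPM, with no more than 1.49 CPM in cDC2 (7.21). Gpr141b, an orphan receptor gene, had a log2 ratio of 6.66, and the sorting nexin Snx22 one of 5.79. Rasgrp3, an activator of Ras, was nearly level across the libraries at 77.4, 76.5, 73.1 and 70.8 CPM (5.69). The 10 named genes were completed by Xcr1 (7.57), Sema4f (4.93, or 6.30 without IRF3/7), Fam149a (4.54), BC035044 (4.53) and the protease gene Adam19 (4.48). Batf3, the factor that cDC1 need to develop, was at 116, 255, 202 and 223 CPM against 9.70 to 24.4 CPM (3.55). Naaa, a lysosomal amidase, was at 2956 to 3712 CPM against 210 to 1370 CPM (2.34).

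Most genes of cDC2 identity were low in cDC1, but not all. The list summed to 6657, 2143, 3091 and 2136 CPM in cDC1 and to 11804, 8836, 11823 and 10777 CPM in cDC2. Ifitm1, an interferon-induced membrane protein (562 to 3338 CPM), and Klrb1b, an inhibitory lectin receptor (372 to 1451 CPM), made up most of it in cDC1 of every library but COX2i + 5-AZA, and without both genes the sums were 1867, 939, 1235 and 1176 CPM in cDC1 and 7077, 4520, 7272 and 6375 CPM in cDC2. The lectin gene Cd209a had 0 UMIs in cDC1 of every library and 334, 83.9, 581 and 151 CPM in cDC2, and was at least 167-fold higher there over the pooled UMIs, with cDC1 set to 3 UMIs over the class. Pgf, a placental growth factor, had 1 UMI in cDC1 and 873 in cDC2 (pooled log2 ratio -7.10, -12.41 to -4.62). For the growth factor gene Areg it was 1 against 238 UMIs (-5.23, -10.54 to -2.74), and for Tnfrsf9, the co-stimulatory receptor 4-1BB, 2 against 441 (-5.12, -8.17 to -3.26). Pltp, a phospholipid transfer protein, was at 0, 0, 11.1 and 22.1 CPM against 377 to 694 CPM (-5.93). Without COX2i + 5-AZA its ratio of mean CPM was -7.22 and that of Tnfrsf9 -3.21, and without COX2i those of Pgf and Areg were -4.59 and -2.97, with 0 UMIs then set to the limit. Irf4, the factor that drives cDC2, had 3 UMIs against 682 (-5.16, -7.44 to -3.61), and Sirpa, an inhibitory receptor of cDC2 and macrophages, was at 40.8 to 117 CPM against 657 to 919 CPM (-2.96).

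Antigen handling genes differed by part of the pathway. In a list for uptake and cross-presentation, 6 of 18 genes were higher in cDC1 (Clec9a, Wdfy4, Rab43, Havcr2, Cd36 and Ly75) and 5 were lower (Rac2, Cybb, Axl, Lrp1 and Mrc1), with a median of -0.05. Rab43, a small GTPase of the cross-presentation route, was at 822, 1117, 725 and 964 CPM (1.62), and Ly75, the endocytic receptor DEC-205, at 58.1 to 135 CPM against at most 22.1 CPM in cDC2 (3.17). None of 14 MHC class I genes was counted, with a median of 0.60. Of 12 MHC class II genes, 3 were lower in cDC1 (H2-DMb2, H2-Oa and Ctss, median -0.39). Cd74, the invariant chain, nevertheless stood at 24324 to 25860 CPM in cDC1. Among sensors, Tlr3, the endosomal receptor for double-stranded RNA, was at 619, 505, 575 and 579 CPM (3.87), and Tlr11 and Tlr12, which see microbial profilin, had log2 ratios of 3.65 and 3.26. The sensing list had 3 of 17 higher and 3 lower (Tlr2, Ddx58 and Ifih1, median -0.30).

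Signalling genes differed from group to group. Of 17 receptors for growth factors and chemokines, 3 were higher (Flt3, Xcr1 and Cxcr3) and 9 lower, among them Csf1r (-1.96) and Ccr2 (-1.43). Flt3, the receptor for the growth factor that expands cDC, was at 164, 173, 160 and 150 CPM (2.50). Cxcr3, the receptor for Cxcl9 and Cxcl10, was at 58.1, 76.5, 46.1 and 48.6 CPM in cDC1 and at no more than 3.05 CPM in cDC2 (5.68). No cytokine or chemokine gene of 17 was higher and 6 were lower (Cxcl10, Ccl3, Ccl4, Ccl5, Ccl17 and Il1b, median -0.95). Of 16 co-stimulation and checkpoint genes, 2 were higher (Havcr2 and Btla) and 5 lower (median -0.44). Interferon receptor and signalling genes had 2 of 17 lower (Ifngr1 and Socs3), none higher and a median of 0.00. Type I interferon-skewed genes had 10 of 18 lower and none higher (median -1.19), interferon-γ-skewed genes 5 of 18 lower (median -0.52), and ISG-DC, a published list of genes that interferon induces in dendritic cells, 40 of 118 lower and 1 higher, Ifi205 (median -0.59). Cell cycle genes were higher in cDC1, 16 of 18 for S phase (median 1.43) and 12 of 17 for G2 and mitosis (median 1.55). Mki67 was at 310, 102, 555 and 325 CPM in cDC1 and at 122, 9.92, 243 and 70.9 CPM in cDC2.

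Against CCR7+ DC, cDC1 held little of the maturation programme. Of 19 genes of that programme, 18 were lower in cDC1 and none higher, with a median log2 ratio of -5.37, and of the 20 identity genes 14 were higher and none lower, with a median of 4.00 (over 6571 genes, 21.5% were counted as higher, 11.3% as lower, and the median was 0.30). CTRL held only 10 CCR7+ DC, and the 4 libraries together 191. Ccr7, the receptor that guides dendritic cells to lymph nodes, was at 0, 15.3, 6.36 and 19.9 CPM in cDC1 and at 4321, 4838, 6382 and 5214 CPM in CCR7+ DC (-8.96). Fscn1, the actin-bundling fascin, had 2 UMIs in cDC1 and 3033 in CCR7+ DC (pooled -11.42, -14.47 to -9.57). Il4i1, an amino acid oxidase, had 1 against 904 UMIs (-10.67, -15.98 to -8.19), and Il12b, a subunit of interleukin-12, 1 against 301 (-9.09, -14.40 to -6.60). For Mreg it was 2 against 515 UMIs (-8.86, -11.91 to -7.00) and for Tnfrsf9 2 against 677 (-9.26, -12.30 to -7.40). In the other direction, Tlr3 had 787 UMIs in cDC1 and 1 in CCR7+ DC (8.77, 6.28 to 14.07), and Itgae and Naaa were higher with 5.76 and 5.55. Other named genes had 1 to 3 UMIs in CCR7+ DC. Their pooled log2 ratios were 6.18 for Ank1 (3.68 to 11.49), 5.81 for Rasgrp3 (3.29 to 11.12), 5.69 for the fatty acid receptor gene Cd36 (3.81 to 8.74) and 5.47 for Mctp1 (3.91 to 7.76). For the cycle genes Kif11 and Tk1 they were 5.83 (3.32 to 11.15) and 5.48 (3.6 to 8.54). Leaving out the library that held the few UMIs moved the ratio of mean CPM most where a class was then at 0. Without IRF3/7 it was 6.78 for Tlr3 and 4.26 for Ank1. Without COX2i + 5-AZA it was 3.19 for Rasgrp3, 2.91 for Kif11, 3.18 for Cd36 and -7.63 for Il12b, and without COX2i it was -8.51 for Il4i1 and -7.45 for Mreg.

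Some identity genes were shared with CCR7+ DC. Batf3 had a log2 ratio of -0.05, Flt3 of -0.12, Zbtb46 of -0.58 and Irf8 of 0.92, while Ly75 was lower in cDC1 (-2.54). Co-stimulation and checkpoint genes had 10 of 16 lower and 3 higher (median -1.88), with Cd274, the ligand PD-L1, at 38.7, 173, 76.3 and 166 CPM in cDC1 against 523, 1452, 914 and 1012 CPM (-3.10). Of 15 cytokine and chemokine genes, 8 were lower, and Il18 and Tgfb1 were higher (median -1.46). MHC class I genes had 2 of 14 higher (Calr and Pdia3) and 3 lower (B2m, H2-K1 and H2-D1), and MHC class II genes 4 of 12 higher (H2-Ab1, H2-DMa, H2-DMb1 and Ciita) and 1 lower (Lgmn). S phase genes had 16 of 18 higher (median 2.61) and G2 and mitosis genes 12 of 15 (median 3.83).

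The remaining comparisons asked how the cDC1 themselves differed between tumours. A gene was counted here when its CPM differed at least 2-fold between the libraries, with a minimum of 20 UMIs over the pair. CTRL, with 16 cells, is the shared base of 3 comparisons, so these are not independent of one another. A gene near 0 in CTRL passes this minimum only through the library where it is high, so the counts and medians below describe the genes that passed and support no direction by themselves. The lists held 18 type I interferon-skewed, 20 interferon-γ-skewed and 119 ISG-DC genes of the table. Genes of cDC1 identity took a median of 1.72% of a cell's UMIs in CTRL, 1.90% in IRF3/7, 1.80% in COX2i and 1.94% in COX2i + 5-AZA. Genes of cDC2 identity were not level. They took a median of 0.640% in CTRL cDC1, 0.162% in IRF3/7, 0.221% in COX2i and 0.166% in COX2i + 5-AZA, or 0.640%, 0.160%, 0.207% and 0.153% without the cells that held macrophage markers. In cDC2 the medians were 1.16%, 0.862%, 1.17% and 1.07%. Without Ifitm1 and Klrb1b those of cDC1 were 0.147%, 0.0781%, 0.101% and 0.0889%. In cDC1 CTRL was highest each time, so these genes moved with every comparison to CTRL, and their part in the other results was not tested.

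Several of the genes that differed most are known interferon targets, and the promoters of 4 are shown first. The motifs searched, on both strands, were GAAA followed after any 2 bases by a second GAAA, the core of the interferon-stimulated response element, and TTCNNNGAA, the gamma-activated site of interferon-γ responses. The windows are the 250 bases before the start site in RefSeq (GRCm38.p6), 5′ to 3′ on the gene's strand, with motif matches in capitals. They are Isg15 (chr4:156200819-156201068, minus), a ubiquitin-like protein that led the rises in IRF3/7, Cxcl10 (chr5:92348890-92349139, minus) and Cxcl9 (chr5:92328080-92328329, minus), the neighbouring ligands of Cxcr3, and Serpina3g (chr12:104235897-104236146, plus), a protease inhibitor that was at 0 UMIs in CTRL.
Isg15: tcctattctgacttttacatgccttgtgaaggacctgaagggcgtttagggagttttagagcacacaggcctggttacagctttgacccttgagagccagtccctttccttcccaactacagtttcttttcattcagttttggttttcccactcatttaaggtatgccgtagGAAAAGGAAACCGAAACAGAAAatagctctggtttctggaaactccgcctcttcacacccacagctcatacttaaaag
Cxcl10: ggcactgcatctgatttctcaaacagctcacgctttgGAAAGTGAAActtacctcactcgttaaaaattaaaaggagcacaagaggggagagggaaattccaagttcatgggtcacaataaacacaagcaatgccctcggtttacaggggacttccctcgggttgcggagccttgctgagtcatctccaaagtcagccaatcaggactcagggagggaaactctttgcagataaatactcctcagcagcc
Cxcl9: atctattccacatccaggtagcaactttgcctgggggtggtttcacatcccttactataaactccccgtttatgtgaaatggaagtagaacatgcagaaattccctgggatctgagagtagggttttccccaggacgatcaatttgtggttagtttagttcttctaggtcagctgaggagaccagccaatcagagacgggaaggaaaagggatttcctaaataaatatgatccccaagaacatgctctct
Serpina3g: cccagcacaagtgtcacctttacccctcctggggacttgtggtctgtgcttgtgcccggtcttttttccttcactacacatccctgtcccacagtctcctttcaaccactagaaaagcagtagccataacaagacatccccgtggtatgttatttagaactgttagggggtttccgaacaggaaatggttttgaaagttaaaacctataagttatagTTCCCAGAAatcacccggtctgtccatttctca
Isg15 held 3 overlapping matches of the first motif, between 78 and 57 bases before the start, Cxcl10 held 1 and Serpina3g held 1 match of the second. The Cxcl9 window held neither. Over all 32851 windows, 2.98% held the first motif and 7.02% the second. Of the type I interferon-skewed genes with a window, 7 of 14 (50%) held the first and 2 of 14 (14.3%) the second, and of the interferon-γ-skewed genes 8 of 13 (61.5%) and 6 of 13 (46.2%). Of the identity genes it was 1 of 15 (6.67%) and 2 of 15 (13.3%). A match is a description of the letters and not a bound site.

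cDC1 of the IRF3/7 tumours had far more interferon-regulated transcripts than those of CTRL. Of the type I interferon-skewed genes, 16 of 18 passed the UMI minimum and all 16 were higher, with a median log2 ratio of 3.51, in which 8 genes at 0 in CTRL enter at their bound. The median was 2.23 without cells that held Mki67 or Top2a and 5.29 with a minimum of 100 UMIs (over the 3324 genes with at least 20 UMIs, 11.7% were counted as higher, 9.0% as lower, and the median was -0.02). The same genes had a median of 4.29 in cDC2. Isg15 (ENSMUSG00000035692.6, chr4:156199424-156200818, minus strand) was at 19.4 CPM (2.34 to 69.9) in CTRL and 3076 CPM (2836 to 3332) in IRF3/7, a log2 ratio of 7.31 (5.45 to 10.36) that rests on 2 CTRL UMIs. It was seen in 6.25% of CTRL cDC1 and in 100% of IRF3/7 cDC1, or 6.67% and 86.8% after thinning, and in NK cells the shares were 0% and 68.8%. Usp18, which removes Isg15 from proteins, was at 9.68 and 679 CPM (6.13, 3.63 to 11.45), and Ifit2, an antiviral RNA-binding protein, at 0 and 633 CPM, at least 21.8-fold higher. The other named rises were Ly6a, the surface antigen Sca-1 (48.4 and 3663 CPM, 6.24, 5.01 to 7.87, cDC2 2.63), Pml (9.68 and 449 CPM, 5.54, 3.02 to 10.86) and Cxcl9 (9.68 and 474 CPM, 5.62, 3.10 to 10.93, cDC2 0.63).

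The overexpressed factors were read in the cDC1 as well, although the vector was in the cancer cells. Irf7 (chr7:141262706-141266481, minus strand) was at 194 CPM (118 to 299) in CTRL and 3270 CPM (3022 to 3533) in IRF3/7, a log2 ratio of 4.08 (3.44 to 4.80), with a UMI in 31.2% and 100% of cells. In CTRL, 15 of its 20 UMIs came from 1 cell. Irf3 was at 67.7 and 56.1 CPM (-0.27, -1.77 to 1.33), so the transcript of the other factor did not differ beyond counting error.

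Genes of interferon-γ responses and some of co-stimulation were also higher in IRF3/7. Of 14 interferon-γ-skewed genes past the minimum, 13 were higher and none lower (median 3.40, or 1.85 without Mki67 or Top2a cells, cDC2 3.34), and of 101 ISG-DC genes 87 were higher and none lower (median 2.45, cDC2 2.58). Irf1, a factor induced by both interferon types, went from 96.8 to 633 CPM (2.71, 1.78 to 3.80), and Gbp2, a guanylate-binding GTPase, from 19.4 to 240 CPM (3.63, 1.7 to 6.72). Cd40, through which T cells license dendritic cells, went from 19.4 to 286 CPM (3.88, 1.96 to 6.96), Cd274 from 38.7 to 173 CPM (2.16, 0.68 to 4.12) and Tlr9, a sensor of DNA, from 29.0 to 265 CPM (3.19, 1.57 to 5.52). In all, 4 of 10 co-stimulation and checkpoint genes were higher, 6 of 16 interferon receptor and signalling genes and 5 of 9 sensing genes. Ifngr1, a chain of the interferon-γ receptor, was lower (639 and 189 CPM, -1.76, -2.38 to -1.16). MHC class I genes had 3 of 14 higher (Tapbpl, Psmb10 and Nlrc5, median 0.77), and no MHC class II gene was counted (median -0.06). Of the identity genes, Batf3, Cadm1 and Zbtb46 were higher (1.14, 1.56 and 1.21) and none was lower.

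**Figure D3:**
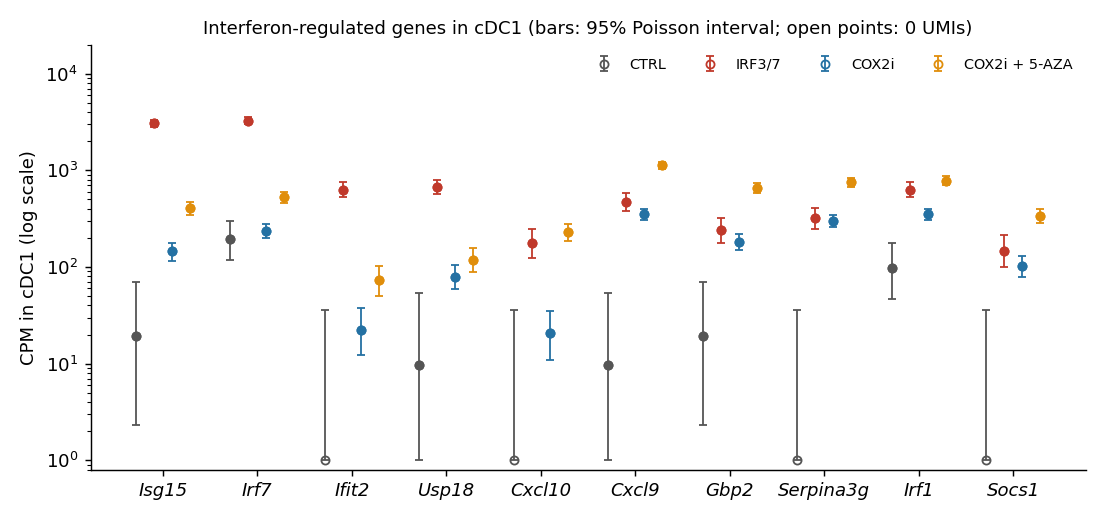
Level in CPM (log axis) of interferon-regulated genes in cDC1 by library, with exact 95% Poisson intervals as bars open points at the base for 0 UMIs, and lower limits under 1 CPM drawn at 1 CPM. Isg15 and Irf7 are highest in IRF3/7 (3076 and 3270 CPM), and Cxcl9, Gbp2 and Serpina3g in COX2i + 5-AZA (1132, 654 and 756 CPM).

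The genes lower in IRF3/7 than in CTRL (299 of 3324) included genes of mitosis, of macrophages and of cDC2. G2 and mitosis genes were lower in all 7 that passed the minimum (median -1.99, cDC2 -3.35), among them Top2a (493 and 128 CPM, -1.95, -2.70 to -1.23), while S phase genes had 2 of 12 higher and 1 lower (median 0.15, or 0.79 without the cells that held macrophage markers). Of the cDC2 identity genes, 5 of 8 were lower (Sirpa, Klf4, Il1r2, Klrb1b and Ifitm1) and none higher, with a median of -1.60 and of -0.26 in cDC2. For Sirpa, Klf4 and Il1r2, the top CTRL cell held 66.7% of 12, 66.7% of 18 and 46.4% of 56 UMIs. For Klrb1b and Ifitm1 the top CTRL cell held 20.0% of 150 and 22.3% of 345. From the other lists the chemokine and cytokine genes Cxcl16 and Il1b, the receptor genes Csf2rb and Csf1r, and Ptger2 were lower as well. The linker histone gene Hist1h1b was at 639 and 86.7 CPM (-2.88, -3.74 to -2.09). The other named falls, Plau, Spp1, Fn1 and Dab2, are genes that tumour macrophages express strongly. Spp1, or osteopontin, was at 4316 and 81.6 CPM (-5.72, -6.54 to -5.01), and 1 CTRL cell held 79.1% of its 446 UMIs there. The same held for Plau, a plasminogen activator (590 and 10.2 CPM, -5.85, -8.93 to -3.94), with 90.2% of 61 UMIs in 1 cell, and for Fn1, or fibronectin (1268 and 25.5 CPM, -5.63, -7.28 to -4.38), with 61.1% of 131. Without the cDC1 that carried macrophage markers, Spp1 was at 126 and 77.3 CPM, Fn1 at 62.8 and 17.8 CPM and Plau at 62.8 and 0 CPM. Dab2, an endocytic adaptor, was at 1055 and 143 CPM (-2.88), and at 804 and 95.2 CPM without those cells. Isg15, Irf7 and Cxcl9 without them were at 25.1, 251 and 12.6 CPM in CTRL and at 2813, 3146 and 500 CPM in IRF3/7. Monocyte markers moved with this comparison as well, from a sum of 1664 to 7035 CPM in cDC1 and from 2299 to 9378 CPM in cDC2, with Ace at 0 in cDC1 of all libraries. Their part in the interferon values was not tested.

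In COX2i against CTRL, interferon-γ-skewed genes were higher, and few type I-skewed genes had enough UMIs to be read. Of 14 interferon-γ-skewed genes past the minimum, 11 were higher and none lower (median 2.69 with 3 at their bound, cDC2 1.50), against a background of 12.3% higher and 4.64% lower over 6360 genes (median 0.08). Only 5 type I-skewed genes passed the minimum, and 3 of them were higher (Isg15, Oasl1 and Usp18). The named rises were Cxcl9 (9.68 and 351 CPM, 5.18, 2.69 to 10.49, cDC2 1.48), Ly6a (48.4 and 597 CPM, 3.63, 2.39 to 5.26), Irgm1, a GTPase of interferon-γ defence (19.4 and 215 CPM, 3.47, 1.59 to 6.53), the secreted DNase gene Dnase1l3 (19.4 and 208 CPM, 3.43, 1.55 to 6.49) and Serpina3g (0 and 300 CPM, at least 10.3-fold). Isg15 was at 145 CPM (2.90, 1.01 to 5.97), and Irf7, at 238 CPM, did not differ beyond counting error (0.30, -0.38 to 1.05). Within the signalling list Socs1, Irf1 and Irf2 of 17 genes were higher. Of 13 co-stimulation and checkpoint genes, Cd40 and Tnfrsf14 were higher and Cd80 lower.

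Cycle genes were also higher in COX2i, 7 of 18 for S phase (median 0.74, cDC2 0.98) and 7 of 17 for G2 and mitosis (median 0.67, cDC2 1.15), with none lower. Cadm1, an adhesion molecule of cDC1 (48.4 and 137 CPM, 1.50, 0.22 to 3.16), and Zbtb46 (126 and 302 CPM, 1.26, 0.45 to 2.20) were the identity genes that were higher. Ccr2, the receptor for Ccl2, was also higher (126 and 326 CPM, 1.37, 0.57 to 2.31). Of the named falls, Ank1 was lower at 57.2 against 223 CPM (-1.96, -2.75 to -1.14). Plau (-3.54), Spp1 (-2.22), Ccl6 (-2.81) and Ccl9 (-2.46) rested on 1 CTRL cell, which held 96.7% of the 30 Ccl6 UMIs and 83.8% of the 37 Ccl9 UMIs in that library. Without the cells that held macrophage markers, Plau was at 62.8 CPM in CTRL and 30.4 in COX2i, Spp1 at 126 and 232, Ccl6 at 12.6 and 28.5 and Ccl9 at 37.7 and 24.7, so that Spp1 and Ccl6 were then no longer lower in COX2i. MHC class I and class II genes gave no counted gene (medians 0.29 and -0.21).

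COX2i + 5-AZA cDC1 had more of the interferon-γ-skewed genes than those of CTRL and COX2i, while against IRF3/7 the genes went both ways. Against CTRL, 14 of 15 were higher (median 3.54, cDC2 3.13), 7 of 10 type I-skewed genes (median 1.38, cDC2 1.61) and 51 of 98 ISG-DC genes (median 1.14, cDC2 0.94, with 1 lower), against 12.9% higher and 6.24% lower over 5317 genes (median 0.06). The named rises were Cxcl9 (1132 CPM, 6.87, 4.39 to 12.18, cDC2 3.62), Gbp5 (347 CPM, 5.16, 2.67 to 10.48), Gbp2 (654 CPM, 5.08, 3.21 to 8.13) and Dnase1l3 (643 CPM, 5.06, 3.19 to 8.11), each with 1 or 2 UMIs in CTRL. Serpina3g was at 756 CPM (678 to 841), at least 26.0-fold higher, and Socs1, a brake on interferon signalling, at 338 CPM, at least 11.7-fold higher. Irf7 was at 524 CPM (1.44, 0.78 to 2.17) and Isg15 at 405 CPM (4.39, 2.51 to 7.44). Both stood well below IRF3/7 (3270 and 3076 CPM), whereas Cxcl9, Gbp2, Serpina3g and Socs1 stood above it (474, 240, 321 and 148 CPM there). Of the 16 interferon-γ-skewed genes with at least 20 UMIs in these 2 libraries together, 7 were higher in COX2i + 5-AZA than in IRF3/7 beyond counting error (these 4, Gbp5, Iigp1 and Irf1), with log2 ratios from 0.31 for Irf1 (0.01 to 0.61) to 1.45 for Gbp2 (1.00 to 1.92). The GTPase genes Ifi47 (-0.96, -1.36 to -0.55), Tgtp1 (-0.79, -1.42 to -0.15) and Igtp (-0.67, -1.17 to -0.16) were lower, and 6 genes did not differ beyond counting error, among them Irgm1 (497 and 622 CPM, -0.32, -0.65 to 0.01).

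The falls against CTRL included Ank1 (31.0 CPM, -2.85, -3.92 to -1.83), Gcsam (252 against 532 CPM, -1.08, -1.55 to -0.59) and Ifitm1. Ifitm1 was highest in CTRL, at 3338 CPM, against 832 in IRF3/7, 874 in COX2i and 562 in COX2i + 5-AZA. Its log2 ratio in COX2i + 5-AZA was -2.57 (-2.81 to -2.33), with -0.22 in cDC2, and without the cells with macrophage markers the levels were 3607 and 546 CPM. The other named falls were Spp1 (-5.12), Dab2 (-3.51), Apoe, a lipid carrier (-3.36), and Plau (-3.25), and 1 CTRL cell held 54.2% of the 153 Apoe UMIs there. Without the cells with macrophage markers, Apoe was at 302 and 78.0 CPM, Dab2 at 804 and 52.9 CPM, Spp1 at 126 and 85.6 CPM and Plau at 62.8 and 65.5 CPM. MHC class I genes had 3 of 14 higher (Tapbpl, Calr and Nlrc5, median 0.65), and of the class II genes H2-Oa alone was counted, as lower.

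Adding 5-AZA to COX2i was read over the deepest pair of libraries. Interferon-γ-skewed genes had 12 of 15 higher (median 1.17, or 1.97 without Mki67 or Top2a cells, cDC2 1.48), type I-skewed genes 10 of 13 (median 1.32, or 2.11 without those cells, cDC2 1.06) and ISG-DC genes 26 of 105 (median 0.55, or 0.41 without the cells that held macrophage markers, cDC2 0.65), none lower, against 2.82% higher and 6.35% lower over 7246 genes (median -0.05). The named rises were Cxcl10 (20.7 and 230 CPM, 3.48, 2.64 to 4.43), Nr4a3, a nuclear receptor induced by activation (63.6 and 301 CPM, 2.24, 1.72 to 2.79), Gbp2 (183 and 654 CPM, 1.84, 1.53 to 2.16) and Socs1 (102 and 338 CPM, 1.73, 1.30 to 2.18). Without the cells that held macrophage markers, Cxcl10 was at 24.7 and 136 CPM (2.46, 1.57 to 3.46) and Nr4a3 at 30.4 and 222 CPM (2.87, 2.09 to 3.73). At equal depth a Cxcl10 UMI was found in 3.90% and 16.7% of cDC1 and in 3.23% and 11.3% of NK cells, which differed by less than counting error from cDC1 in both libraries, so the Cxcl10 rise is given as a level and not read as expression by cDC1. Cytokine and chemokine genes had 6 of 14 higher (Cxcl9, Cxcl10, Ccl3, Ccl4, Ccl5 and Ccl22) and 2 lower (Ccl17 and Il6st), with Cxcl10 counted by level alone. Ccl3, Ccl5 and Ccl22 were seen in 8, 5 and 5 COX2i + 5-AZA cDC1, with 61.8% of the 34 Ccl5 UMIs in 1 cell. In COX2i, 1 cell held 43.0% of the 86 Ccl17 UMIs. G2 and mitosis genes had 11 of 17 lower and none higher (median -1.19, cDC2 -1.55), with Ube2c, a ubiquitin enzyme of mitotic exit, at 329 and 57.5 CPM (-2.52, -3.16 to -1.92). The remaining falls, Fcrls (-4.00), Spp1 (-2.90), Apoe (-2.60) and Dab2 (-2.23), are macrophage genes. Without the cells that held macrophage markers they went from 79.8 to 25.2, from 232 to 85.6, from 81.7 to 78.0 and from 285 to 52.9 CPM.

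Per cell, type I-skewed genes took a median of 0.00672% of UMIs in CTRL (0 to 0.412), 1.01% in IRF3/7 (0.126 to 2.94), 0.0311% in COX2i (0 to 1.28) and 0.0544% in COX2i + 5-AZA (0 to 1.19). Every IRF3/7 cDC1 held at least 1 such UMI, while 8 cells in CTRL, 17 in COX2i and 7 in COX2i + 5-AZA held none. The highest cells of CTRL, COX2i and COX2i + 5-AZA overlapped the IRF3/7 range. Interferon-γ-skewed genes took 0.102%, 0.424%, 0.191% and 0.543% of UMIs, and MHC class I genes 0.710%, 1.16%, 0.811% and 1.17%. MHC class II genes were nearly level at 7.88%, 7.38%, 7.27% and 7.25%.

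**Figure D4:**
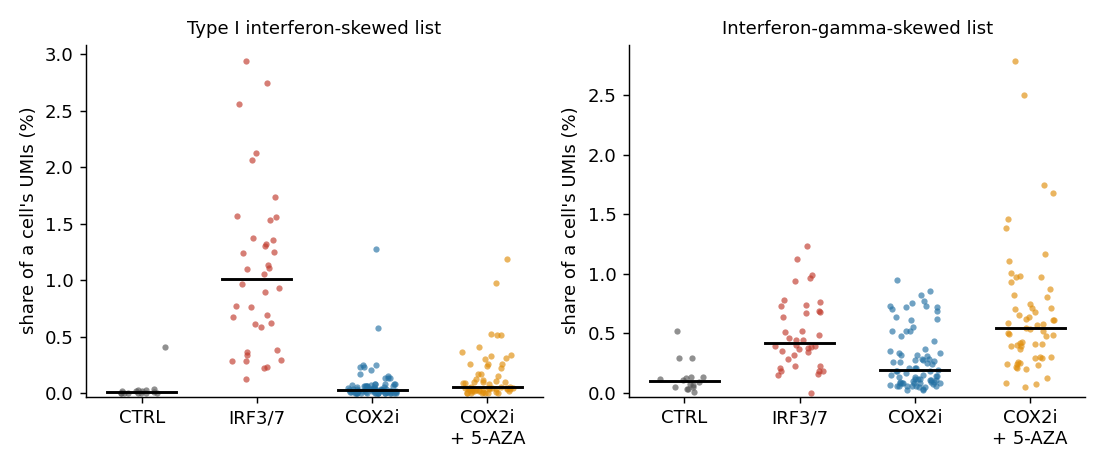
Percent of each cDC1's UMIs in genes of a list, 1 point per cell, by library, with the median as a line, for the type I interferon-skewed (left) and interferon-γ-skewed (right) lists. The type I share in IRF3/7 (median 1.01%) lies above most cells of the other libraries, and the interferon-γ share is highest in COX2i + 5-AZA (median 0.543%).

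The chemokines of the Cxcr3 axis were read in each dendritic class. In cDC1, Cxcl9 (ENSMUSG00000029417.9, chr5:92321347-92328079, minus strand) was at 9.68 CPM (0.245 to 53.9) in CTRL, 474 (383 to 581) in IRF3/7, 351 (306 to 401) in COX2i and 1132 (1036 to 1234) in COX2i + 5-AZA. In cDC2 it was at 46.3, 71.7, 129 and 571 CPM, so cDC1 stood higher in the last 3 libraries. In CCR7+ DC it was at 1114, 159, 389 and 813 CPM. That was above cDC1 in CTRL (10 CCR7+ DC), within counting error of it in COX2i and below it in IRF3/7 and COX2i + 5-AZA. Cxcl10 (chr5:92346638-92348889, minus strand) was at 0, 179, 20.7 and 230 CPM in cDC1 and at 41.7, 1028, 258 and 531 CPM in cDC2, where every library was higher. CCR7+ DC were also higher in every library, at 569, 784, 109 and 579 CPM. In IRF3/7, 27 of the 35 Cxcl10 UMIs of cDC1 (77.1%) came from 1 cell. Without the cells that held macrophage markers the Cxcl10 levels of cDC1 were 0, 47.6, 24.7 and 136 CPM. For each Cxcl10 UMI there were 2.66 Cxcl9 UMIs (1.78 to 4.04) in IRF3/7 cDC1, 17.0 (9.74 to 32.4) in COX2i and 4.92 (3.98 to 6.14) in COX2i + 5-AZA. The values in cDC2 were 0.0697 (0.0560 to 0.0860), 0.500 (0.444 to 0.562) and 1.07 (0.968 to 1.19), with all cDC2 kept. Without the macrophage-marker cells the values in cDC1 were 10.5 (5.09 to 25.1), 16.1 (9.20 to 30.7) and 8.46 (6.37 to 11.4). No difference between the classes is read from these ratios, since at equal depth the share of cDC1 with Cxcl10 did not exceed that of NK cells beyond counting error. The level of a probe count depends on its probes, so such a ratio is not one of molecules either.

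Cxcl9 was carried by more cDC1 than Cxcl10. Cxcl9 was seen in 1 of 16 CTRL, 12 of 38 IRF3/7, 32 of 79 COX2i and 37 of 60 COX2i + 5-AZA cDC1, shares of 6.25%, 31.6%, 40.5% and 61.7% (6.67%, 26.3%, 29.9% and 41.7% after thinning). NK cells, which should lack it, had shares of 0%, 4.05%, 6.0% and 12.1%. Cxcl10 was seen in 0, 4, 6 and 18 cDC1, or 0%, 10.5%, 7.59% and 30.0%, against 0%, 19.2%, 6.0% and 16.5% of NK cells. After thinning the shares were 0%, 10.5%, 3.90% and 16.7% (8.29 to 28.5) of cDC1 and 0%, 16.4%, 3.23% and 11.3% (7.94 to 15.6) of NK cells. At equal depth no library of cDC1 thus stood above NK cells beyond counting error. With few cells behind them, these shares cannot tell Cxcl10 expression by cDC1 from background. Whether NK cells give the background level was not tested. Both chemokines were seen in 3, 3 and 14 cells of IRF3/7, COX2i and COX2i + 5-AZA. Serpina3g was seen in 0%, 44.7%, 36.7% and 75.0% of cDC1 (0%, 28.9%, 28.6% and 46.7% after thinning) and in 2.33%, 32.3%, 9.31% and 43.7% of cDC2.

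**Figure D5:**
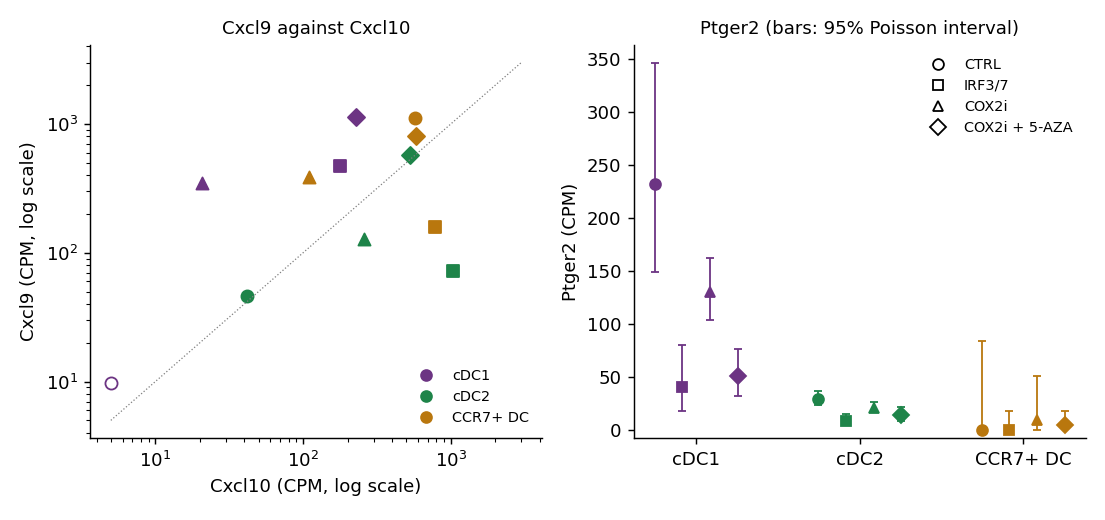
Left, Cxcl9 against Cxcl10 in CPM (log axes) for cDC1, cDC2 and CCR7+ DC (colours) in each library (shapes), with equal levels on the dotted line and CTRL cDC1, which has 0 Cxcl10 UMIs, as an open point at 5 CPM. Right, Ptger2 in CPM with exact 95% Poisson intervals, where cDC1 go from 232 CPM in CTRL to 40.8 CPM in IRF3/7 and 50.9 CPM in COX2i + 5-AZA.

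Ptger2 (ENSMUSG00000037759.6, chr14:44988195-45003820, plus strand), which encodes the PGE2 receptor EP2, was the only prostaglandin gene counted as higher in cDC1 against each other class. It was at 232 CPM in CTRL, 40.8 in IRF3/7, 130 in COX2i and 50.9 in COX2i + 5-AZA. The values were 29.1, 8.39, 20.9 and 13.7 CPM in cDC2 (2.66), where CTRL was also highest, and 0 to 9.05 CPM in CCR7+ DC (5.02). Against CTRL, Ptger2 of cDC1 was lower in IRF3/7 (-2.51, -3.87 to -1.31) and COX2i + 5-AZA (-2.19, -3.08 to -1.30), and in COX2i the ratio of -0.83 (-1.50 to -0.11) was under 2-fold. Against COX2i it was lower in COX2i + 5-AZA (-1.36, -2.09 to -0.68). A UMI was found in 75.0%, 13.2%, 51.9% and 28.3% of cDC1 (46.7%, 2.63%, 28.6% and 13.3% after thinning), in 9.77%, 2.56%, 8.26% and 6.51% of cDC2 and in 9.09%, 8.10%, 16% and 11.0% of NK cells. The thinned IRF3/7 share was 1 of 38 cells and was under the unthinned NK share, while that of COX2i + 5-AZA was near it. Shares there are thus not read as setting cDC1 apart, and those of IRF3/7 and COX2i + 5-AZA were not read as an order. Without the cells with macrophage markers the levels were 239, 47.6, 127 and 55.4 CPM. Ptger4, the gene of the EP4 receptor, was at 38.7, 45.9, 69.9 and 104 CPM in cDC1 and 143, 110, 130 and 91.5 CPM in cDC2. It was lower in cDC1 in CTRL, IRF3/7 and COX2i but not in COX2i + 5-AZA, and its log2 ratio of -0.88 was under 2-fold. Ptgs2, which encodes COX2 itself, was lower in cDC1 (11.1 to 66.3 CPM) than in cDC2 (231 to 585 CPM, -3.51).

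Mki67 and Top2a, genes of dividing cells, were seen in many cDC1. A UMI of either was found in 50% of CTRL, 15.8% of IRF3/7, 73.4% of COX2i and 51.7% of COX2i + 5-AZA cDC1 (33.3%, 15.8%, 61.0% and 40.0% after thinning), against 18.0%, 3.59%, 37.7% and 16.9% of cDC2 and 30.0%, 4.55%, 10.7% and 11.5% of CCR7+ DC. IRF3/7 was lowest and COX2i highest in cDC1 and cDC2 alike. Of COX2i + 5-AZA cDC1, the 31 with such a UMI had Cxcl9 at 323 CPM (258 to 400) and the 29 without at 2223 CPM (2018 to 2444). In COX2i the levels were 338 and 413 CPM (58 and 21 cells), and in IRF3/7 224 and 539 CPM. Irf7 in COX2i + 5-AZA was at 370 and 732 CPM, and Isg15 at 254 and 608 CPM. Isg15 in COX2i was at 146 and 141 CPM, a gap within counting error, and Serpina3g had no common direction, at 771 and 205 CPM in IRF3/7 (6 and 32 cells), 243 and 562 CPM in COX2i and 627 and 930 CPM in COX2i + 5-AZA. A single cell among the 6 of IRF3/7 held 29 of the 63 Serpina3g UMIs there (46.0%), so the IRF3/7 direction rests on it. In COX2i + 5-AZA Xcr1 went the other way from Cxcl9 at 916 and 556 CPM. Cells without such a UMI were shallower (medians of 5530 against 8176 UMIs in COX2i + 5-AZA), and the part of depth in these differences was not tested.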

How the data were processed

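Gene expression was measured in 34447 CD45+ cells of 4 libraries (CTRL, IRF3/7, COX2i, COX2i + 5-AZA) with the probe-based Chromium Flex assay. The deposited values are UMI counts per gene and cell, which the authors made with Cell Ranger 7.1.0 (also in the submitters' processing notes) and the mm10 probe set, and did not normalise. They filtered cells on detected genes and on mitochondrial and ribosomal content, removed ribosomal and mitochondrial genes, and named 17 classes from clusters of several integrated experiments, with doublet removal not given in the sources used here. The UMI sum matched the cell table in 34447 cells over 12584 genes.

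Here UMIs were summed per class and library and given as CPM of the class total. Class ratios are log2 ratios of the mean CPM over the libraries. They were counted at 2-fold with the same direction of CPM in all 4 libraries and at least 50 UMIs in both classes together. Pooled ratios divide UMIs summed over all libraries. Library ratios were counted at 2-fold with at least 20 UMIs. A count of 0 was set to 3 UMIs for a ratio of libraries or of pooled UMIs. In a mean CPM over the libraries a library at 0 entered as 0, and only a class at 0 in every library was set to 3 UMIs over the class. Intervals are exact 95% (Clopper-Pearson, Poisson, or conditional for ratios). Shares of cells with a UMI were repeated after thinning to 2000 UMIs.

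Named genes were the 6 markers and, per class comparison, the 10 genes most higher in cDC1 (100 UMIs there) and 5 most lower (100 UMIs in the other class). Per library comparison they were the 5 largest rises and 5 largest falls (50 UMIs together, 200 CPM in the higher library), with list genes added where a result describes them. A few genes that this rule selects are not reported here. The members and lists were chosen with earlier results of these data known. Cells of a library are not replicates, so no test between conditions was run. Multigene families such as Ly6a, Gbp2, Serpina3g and the H2 genes may share probes with close copies, which was not tested. Python 3.11.15, numpy 2.4.6, scipy 1.17.1, pandas 2.3.3, scanpy 1.11.5 (Scrublet) and matplotlib 3.10.9 were used, and the calculations were tested on simulated data. Alternatives changed the normalisation, the UMI minimum, the denominator, the cells kept and the libraries.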

Additional observations from a re-analysis of the deposited data

Results flagged for a closer look

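In 3 instances a gene moved one way between 2 libraries in cDC1 and the other way in cDC2. Between COX2i and CTRL, Plau had a log2 ratio of -3.54 in cDC1 and 0.75 in cDC2, and Ccl6 -2.81 and 0.99. Between COX2i + 5-AZA and CTRL, Plau had -3.25 in cDC1 and 0.92 in cDC2. With 1 library per group the differences between the classes were not tested. A single CTRL cDC1 held 90.2% of the 61 Plau UMIs and 96.7% of the 30 Ccl6 UMIs of that library. Without the cDC1 that held macrophage markers, Plau was at 62.8 CPM in CTRL, 30.4 in COX2i and 65.5 in COX2i + 5-AZA. Ccl6 was then at 12.6 CPM in CTRL and 28.5 in COX2i, a log2 ratio of 1.18 (-1.52 to 6.58) from 1 UMI in CTRL, which has the direction of cDC2.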

How the results depend on the processing

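No paired analysis was possible because each group is 1 library and no result comes from a test. Of the summary results, 207 values under the alternatives kept their direction and size, 37 moved and 1 turned. The ratio of the cDC1 share in IRF3/7 to CTRL was 8.43 with only cells above 2000 genes. COX2i + 5-AZA over COX2i turned to 1.44 with dendritic cells as denominator. Leaving out each library in turn moved none of the class counts, and list medians were not put through it. With a minimum of 200 UMIs, 374 genes were higher against cDC2, and 477 higher and 382 lower against CCR7+ DC. The counts between libraries followed the UMI minimum. In the order of no minimum, a minimum of 100, and no cells with Mki67 or Top2a (8, 32, 21 and 29 cells kept), IRF3/7 against CTRL gave 958 and 61 higher genes for the first pair, and 1490, 21 and 169 lower. COX2i against CTRL gave 78 and 160 higher for the last pair, and 1178, 23 and 101 lower. COX2i + 5-AZA against CTRL gave 89 and 402 higher for the last pair, and 1466, 34 and 179 lower. Against COX2i it gave 601, 31 and 315 higher, and 1042, 45 and 129 lower. List medians also moved. In IRF3/7 against CTRL, type I-skewed was 5.29 with a minimum of 100 and 2.23 without Mki67 or Top2a cells, interferon-γ-skewed 1.85 without Mki67 or Top2a cells, ISG-DC 1.85 and 1.7, and S phase 0.79 without cells that held macrophage markers. S phase was 1.39 without those cells in COX2i + 5-AZA against CTRL. In COX2i + 5-AZA against COX2i, type I-skewed was 2.11, interferon-γ-skewed 1.97 and S phase 0.70 without Mki67 or Top2a cells, ISG-DC 0.41 without the macrophage-marker cells, and G2 and mitosis -1.46 without cells in shared droplets. A minimum changes which genes are counted, and for the rest the cause was not tested. Of single genes, 830 values kept their direction and size and 76 moved. Spp1 in COX2i (0.88) and Plau in COX2i + 5-AZA (0.06) turned against CTRL without the macrophage-marker cells, and Apoe turned in COX2i + 5-AZA against COX2i (1.00) without Mki67 or Top2a cells. Ccl6 in COX2i against CTRL also went from -2.81 to 1.18 without the macrophage-marker cells. It was then under the UMI minimum and is not among the counted values. Scrublet marked too few cells to have worked, so no value without doublets is given. The alternatives without macrophage-marker cells and without shared droplets were chosen after seeing the data. Depth limits CTRL most, where 3 UMIs are 29.0 CPM.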

Other observations

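Some further genes of cDC1, chosen after their values were seen, are given here as values. Klrb1b was highest in CTRL cDC1, at 1451 CPM, against 372 in IRF3/7, 982 in COX2i and 398 in COX2i + 5-AZA, and stood at 1609, 381, 1005 and 431 CPM without the cells that held macrophage markers. Plac8, a gene of monocytes and plasmacytoid DC, had 93, 1013, 584 and 701 UMIs in the cDC1 of the 4 libraries (900, 5168, 928 and 1550 CPM), with a log2 ratio of 2.52 in IRF3/7 against CTRL. Without the cells with macrophage markers it was at 1043, 4603, 964 and 1541 CPM. The rise was not particular to cDC1, as Plac8 was at 186, 5242, 424 and 1933 CPM in cDC2 and 114, 2972, 471 and 497 CPM in CCR7+ DC. Of the 57 UMIs of S100a8, a neutrophil gene, in IRF3/7 cDC1, 52 (91.2%) came from 1 cell. Chil3 had 0 UMIs in CTRL cDC1 and was at least 14.1-fold higher in IRF3/7, where 62 of its 80 UMIs (77.5%) came from 1 cell. Without the cells that held macrophage markers, 15 UMIs (89.2 CPM) were left and it was at least 2.37-fold higher.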
